A study of Homo sapiens with 12 samples.

Results

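The genes described are 10 factors and markers of the mesenchymal cell state, taken by their symbols from the gene tables of a study of human mast cell lines: VIM, SNAI1, SNAI2, TWIST1, ZEB1, ZEB2, CDH1, CDH2, FN1 and COL1A1. All 10 were found among the 58381 genes of the tables. Messenger RNA was sequenced from 12 libraries of HMC-1 cells, a line grown from a patient with mast cell leukaemia, in 4 groups of 3. HMC-1.1 cells carry V560G in KIT, the receptor for stem cell factor, and in HMC-1.2 cells D816V is present beside V560G. HMC-1.3 cells were made from HMC-1.2 by reverting V560G with CRISPR/Cas9 and a single-stranded donor oligonucleotide, so that D816V alone remains, followed by puromycin selection and limiting dilution. They were sequenced as clone 1 and clone 2, each grown from 1 cell, and HMC-1.1 and HMC-1.2 did not pass through editing, puromycin or cloning. In a comparison of either clone with HMC-1.2, the loss of V560G and the passage through editing and cloning cannot be told apart. HMC-1.1 and HMC-1.2 are sublines found within HMC-1 cultures. When they are compared, D816V and the separate history of the sublines cannot be told apart. The 3 libraries of a group came from parallel wells of 1 line, so the p-values below measure the spread between wells, which may be technical.

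Cells in an epithelial state hold to each other through E-cadherin, the product of CDH1. Transcription factors of the SNAI, TWIST and ZEB families repress CDH1 in the transition to a mesenchymal state, while vimentin (VIM), N-cadherin (CDH2), fibronectin (FN1) and type I collagen (COL1A1) mark the mesenchymal state. Blood cells commonly express vimentin outside any such transition, and ZEB2 has roles in haematopoiesis. Slug, the product of SNAI2, is known to act downstream of KIT in haematopoietic progenitors. Levels are given in expected counts, which are the RSEM estimates of the reads of a gene, or as FPKM, which corrects for the length of the transcript and the depth of the library so that levels of different genes can be compared. A gene with no more than 3 expected counts in a library was taken to be at the floor there.

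The libraries held between 29225900 and 43181402 expected counts, so that 3 counts stood for 0.0695 to 0.103 CPM, the count scaled to 1e+06 per library. The cell type label was borne out by its markers, since KIT had a mean of 356 to 450 FPKM over the 4 groups and all 11 mast cell markers examined were detected. The IgE receptor chains MS4A2 and FCER1A were near the floor in some groups, at 3 to 23 and 4 to 46 counts a library. Summed over these 11 genes, the level was 2596 to 2631 FPKM in HMC-1.2 and 1704 to 1828 FPKM in the other 9 libraries. Of the fibroblast markers, FAP and POSTN were at 0 in every library and the sum of 7 genes was 0.46 to 1.79 FPKM. In bulk RNA, fewer cells of a type and less RNA per cell cannot be told apart.

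One library stood apart from the rest in genes that bear on the mesenchymal state. Clone 2 replicate 3 held 23 genes with at least 30 counts there and no more than 3 counts in any of the other 11 libraries, while each of those had 0 or 1 such gene. These genes took 1657 counts, or 38.4 CPM, and included EGFR, the epidermal growth factor receptor, KRT7, a keratin, LOX, a collagen cross-linking enzyme, and CYR61, a secreted matrix protein. KRT8 and KRT18, the paired keratins of simple epithelia, had 459 and 429 counts in this library against at most 13 and 4 elsewhere. SPARC, a matrix glycoprotein, had 318 counts against at most 4, and EGFR had 59 against at most 1. These genes were singled out after their values were seen. Their part in the results of clone 2 was not tested, and the difference of each tested member between clone 2 and HMC-1.2 is given below with and without this library.

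**Figure D1:**
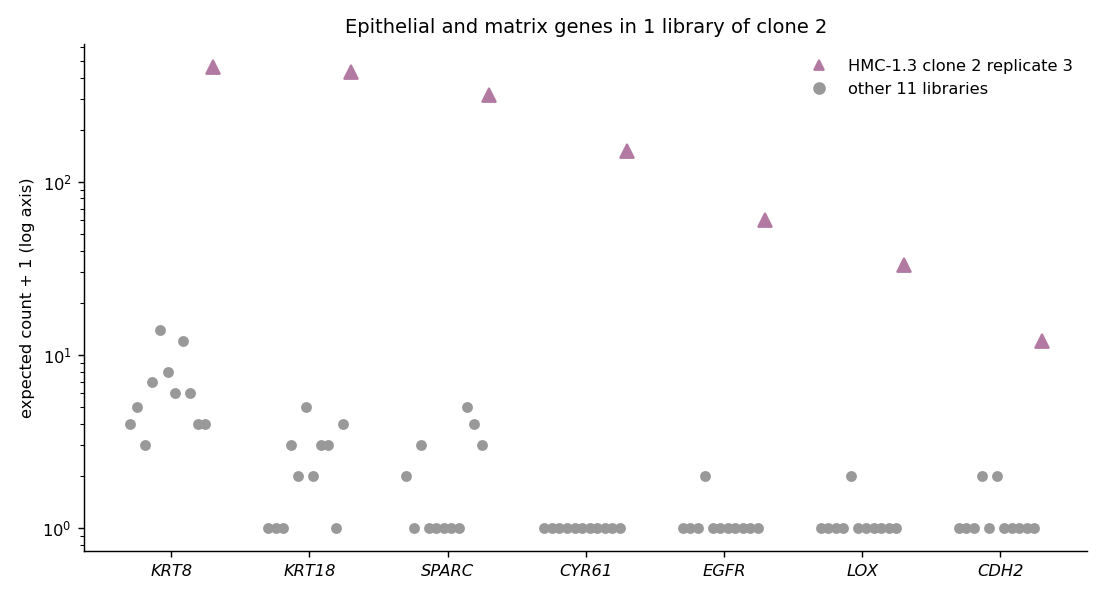
Expected counts plus 1, on a log axis, of 7 genes in each of the 12 libraries, with clone 2 replicate 3 as a triangle and the other 11 libraries as circles. In all 7 genes clone 2 replicate 3 lies above every other library, from 459 counts of KRT8 down to 11 counts of CDH2.

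To show the regulatory sequence of the member that fell by the largest amount among the abundant genes, and of the one factor that rose, the 250 bases before a RefSeq start of VIM and of ZEB1 are given (GRCh38.p14, both on the plus strand, chr10:17227991-17228240 and chr10:31318167-31318416). Capitals mark CAGGTG or CACCTG, the E-box that SNAI and ZEB factors bind.
VIM: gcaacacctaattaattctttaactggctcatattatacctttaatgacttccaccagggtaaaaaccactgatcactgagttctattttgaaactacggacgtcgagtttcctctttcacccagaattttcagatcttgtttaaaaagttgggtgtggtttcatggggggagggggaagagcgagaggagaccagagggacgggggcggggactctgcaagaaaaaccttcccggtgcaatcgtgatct
ZEB1: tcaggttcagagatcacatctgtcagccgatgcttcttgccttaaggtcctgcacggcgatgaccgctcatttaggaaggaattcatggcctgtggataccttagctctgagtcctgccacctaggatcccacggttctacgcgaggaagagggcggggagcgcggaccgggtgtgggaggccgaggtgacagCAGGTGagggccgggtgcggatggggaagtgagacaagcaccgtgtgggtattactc
RefSeq windows from 250 bases before to 50 bases after a start were searched for 5 of the 10 members, 12 windows in all. VIM, ZEB2 and FN1 had 1 window each, CDH2 had 2 and ZEB1 had 7. The E-box was in 2 of the 12 windows, both of ZEB1, against 20.6% of all 35116 windows. Counted by gene, ZEB1 alone of the 5 members searched had it, against 24.1% of all 27305 genes. The AP-1 motif TGANTCA was in 1 window, of CDH2, against 7.71% of all windows. Both motifs were searched on both strands as these letters only, and the 2 do not overlap each other. SNAI2 was left out of this search, and CDH1, SNAI1, TWIST1 and COL1A1 had no entry.

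VIM (chromosome 10, 17228241 to 17237593, GRCh38 as for all positions below), which encodes the intermediate filament vimentin, was the most abundant member in HMC-1.2. Its expected counts were 14863, 11904 and 11721 in HMC-1.2, 1557, 1565 and 1510 in HMC-1.3 clone 1, then 3341, 3880 and 4628 in clone 2, with 1475, 1437 and 1417 in HMC-1.1. No group overlapped another in CPM. In FPKM the means were 243 ± 7.53 (SD, n = 3) for HMC-1.2, 62.5 ± 3.45 for clone 2, 26.6 ± 0.656 for clone 1 and 24 ± 0.878 for HMC-1.1. By mean FPKM the gene ranked 404 of 58381 in HMC-1.2, 1931 in clone 2, 4263 in clone 1 and 4536 for HMC-1.1.

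Against HMC-1.2, VIM was 9.50-fold lower in clone 1 (log2 fold change -3.25, SE 0.04, adjusted p = 3e-19, quasi-likelihood F test of edgeR, p adjusted after Benjamini and Hochberg). In clone 2 it was 3.98-fold lower than in HMC-1.2 (log2 -1.99, SE 0.04, adjusted p = 6.5e-17) and in HMC-1.1 10.5-fold lower (log2 -3.39, SE 0.04, adjusted p = 1.7e-19). The clones differed from each other, with VIM 2.38-fold lower in clone 1 than in clone 2 (log2 -1.25, SE 0.04, adjusted p = 2.3e-13). Clone 2 also stood 2.63-fold above HMC-1.1, whereas clone 1 and HMC-1.1 differed by 1.1-fold, which passed the test (adjusted p = 0.029) but lay under the 1.5-fold threshold. Clone 2 replicate 3 had the highest VIM level of its group at 66.4 FPKM against 59.8 and 61.4 in the other 2 libraries. Without it, the log2 fold change of clone 2 was -2.03 against HMC-1.2 and that of clone 1 against clone 2 was -1.22. VIM was also in a set of genes that the study drew from the differences between an HMC-1.3 clone and HMC-1.2 in these samples, so its direction here is not independent evidence.

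**Figure D2:**
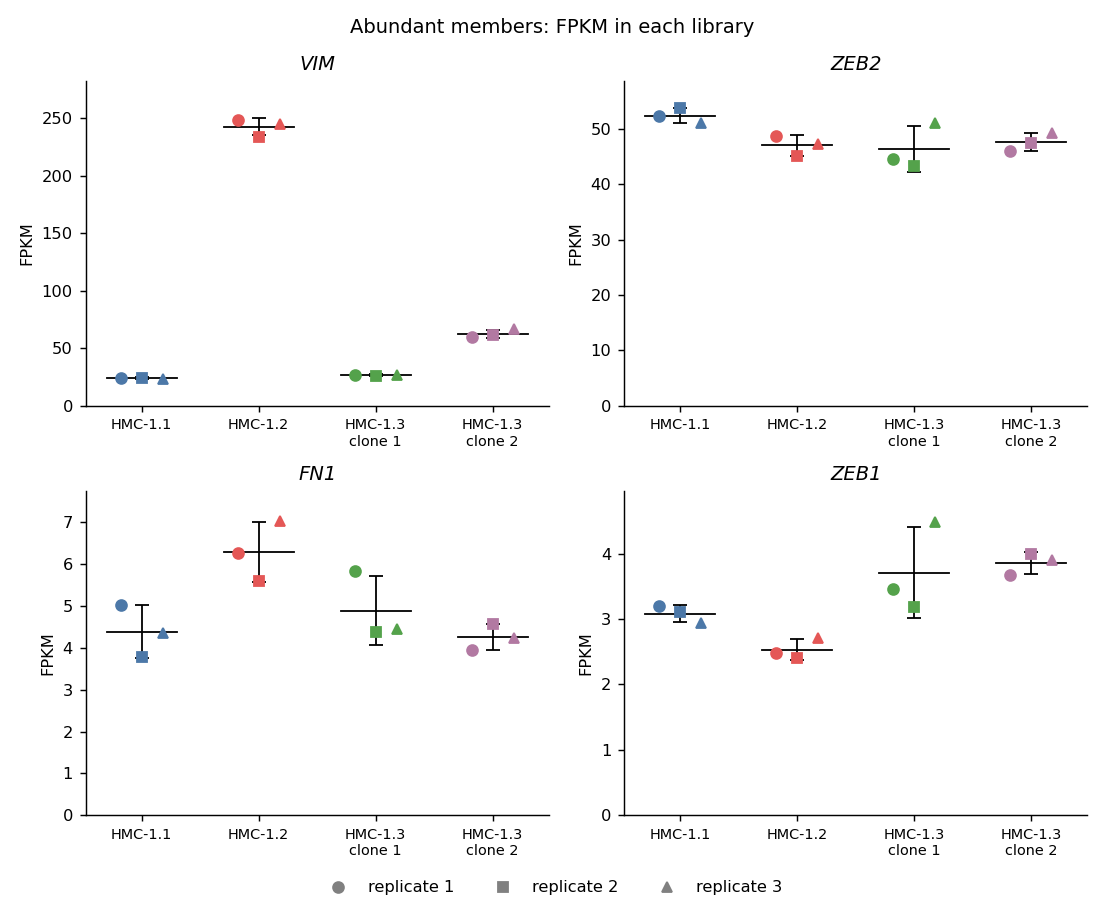
FPKM of VIM, ZEB2, FN1 and ZEB1 in each library, by group, with a marker shape for each replicate, a horizontal bar at the mean and error bars of 1 SD (n = 3). VIM is separated in all 4 groups, with means of 243 FPKM for HMC-1.2 and 24 for HMC-1.1, while ZEB2 lies between 43.4 and 53.7 FPKM in all 12 libraries.

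A gene on the opposite strand overlaps VIM. This antisense RNA, VIM-AS1, was matched by its identifier and had 344 to 418 counts in HMC-1.2, 203 to 233 in clone 2, 110 to 123 in clone 1 and 101 to 115 in HMC-1.1. Its log2 fold changes against HMC-1.2 were -1.87 (SE 0.09) in clone 1, -1.07 (SE 0.09) in clone 2, and -2.03 (SE 0.10) for HMC-1.1, each smaller in size than that of VIM. The groups stood in the same order as for VIM. The library kit keeps the strand of the RNA, but the strand setting of the counting is not given in the sources used here, so a share of reads passing between the 2 genes was not tested. The nearest tested protein-coding neighbours, TRDMT1 at 26 kb on one side and ST8SIA6 at 78 kb on the other, did not pass the thresholds in any comparison with HMC-1.2, with log2 fold changes of -0.47 to -0.22 and 0.20 to 0.51.

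SNAI1 and SNAI2 encode the zinc finger repressors Snail and Slug. SNAI1 (chromosome 20, 49982980 to 49988886) was detected in every library at a low level, with 32, 50 and 42 counts in HMC-1.2, 12, 10 and 9 in clone 1, 23, 25 and 15 in clone 2 and 10, 16 and 18 in HMC-1.1. HMC-1.2 lay above the other 3 groups with no overlap in CPM, at a mean of 0.893 ± 0.261 FPKM against 0.200 ± 0.026, 0.380 ± 0.122 and 0.273 ± 0.081. SNAI1 was lower than in HMC-1.2 by 4.6-fold in clone 1 (log2 -2.20, SE 0.35, adjusted p = 4.4e-05), by 2.41-fold in clone 2 (log2 -1.27, SE 0.32, adjusted p = 0.0034) and by 3.35-fold in HMC-1.1 (log2 -1.75, SE 0.34, adjusted p = 0.00032). Without clone 2 replicate 3 the value for clone 2 was -1.01. Between the clones the log2 difference was -0.93 (SE 0.38, adjusted p = 0.052). Without the same library, which had the fewest SNAI1 counts of that clone, this difference was -1.2 and passed the test (adjusted p = 0.018, with a range of 0.018 to 0.7 over its 14 alternatives).

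SNAI2 (chromosome 8, 48917598 to 48921740) was not detected in 6 of the 12 libraries. It had 24, 30 and 17 counts in HMC-1.2 and 7, 2 and 13 in clone 2, and 0 in all 3 libraries of clone 1 and all 3 of HMC-1.1. Its level therefore had no more than a bound in the last 2 groups. Taking 3 counts over each of them as the floor, SNAI2 was at least 26.1-fold lower than in HMC-1.2 in clone 1 and at least 27.3-fold lower in HMC-1.1. In clone 2 it was 3.90-fold lower (22 counts against 71, exact 95% interval of the ratio 2.39 to 6.60, counting error only) and at least 6.69-fold higher than in clone 1. Each value given as at least takes the counts of the higher group as exact.

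All 3 of these differences of SNAI2 from HMC-1.2 passed the test, with adjusted p of 2.6e-05 for clone 1, 0.0053 for clone 2 and 3.1e-05 for HMC-1.1, and so did that between the clones (adjusted p = 0.0029). Of the 22 SNAI2 counts of clone 2, 13 were in replicate 3. Without that library the log2 fold change of clone 2 against HMC-1.2 was -2.56 (SE 0.60, adjusted p = 0.004) and clone 1 still lay below clone 2 (adjusted p = 0.012). SNAI2 passed the filter on low counts through HMC-1.2 alone, so a difference from HMC-1.2 was built into its being tested. SNAI2 was in the same set of the study as VIM.

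TWIST1 (chromosome 7, 19020991 to 19117636), a basic helix-loop-helix factor of the early mesoderm, was above the floor in HMC-1.2 alone. It had 23, 17 and 26 counts there, 0, 2 and 0 in clone 1, 2 in each library of clone 2 and 1, 0 and 0 in HMC-1.1. Its summed counts were 36.4-fold lower in clone 1 than in HMC-1.2 (exact 95% interval 9.68 to 307), 13.3-fold lower in clone 2 (5.79 to 37.5) and 76.2-fold lower in HMC-1.1 (13.2 to 3054), where the intervals cover counting error only. The adjusted p of edgeR's test were 6e-06, 3.2e-05 and 4.1e-06. Without clone 2 replicate 3 the fitted log2 fold change of clone 2 was -3.59, as against -3.67 with it. The 3 groups at the floor did not differ from each other past the test, which at 0 to 2 counts a library says little about them. Like SNAI2, TWIST1 entered the test through HMC-1.2 alone.

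**Figure D3:**
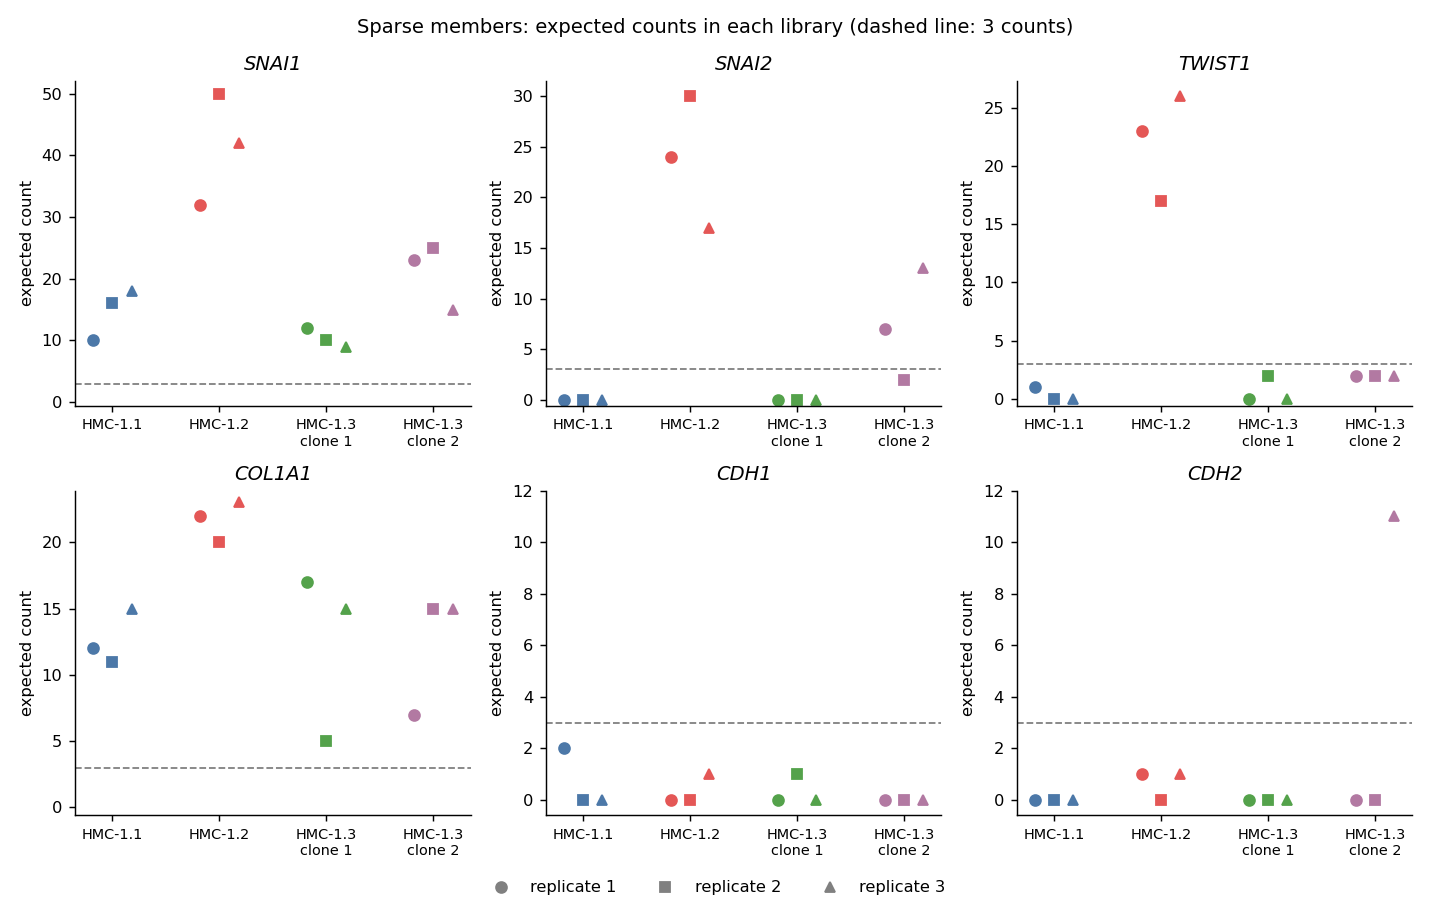
Expected counts of SNAI1, SNAI2, TWIST1, COL1A1, CDH1 and CDH2 in each of the 12 libraries, by group, with a marker shape for each replicate and a dashed line at 3 counts. SNAI1, SNAI2 and TWIST1 are highest in the 3 libraries of HMC-1.2, CDH1 never exceeds 2 counts, and CDH2 exceeds 3 counts in clone 2 replicate 3 alone.

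ZEB1 and ZEB2, the 2 zinc finger and homeobox repressors, did not follow the SNAI and TWIST factors. ZEB1 (chromosome 10, 31318495 to 31529814) was lowest in HMC-1.2, with 487, 416 and 408 counts, against 676, 620 and 730 in clone 1, 712, 844 and 905 in clone 2 and 649, 620 and 626 in HMC-1.1. HMC-1.2 lay below the other groups in CPM with no overlap. ZEB1 was 1.53-fold higher in clone 2 (log2 0.62, SE 0.07, adjusted p = 1.1e-06), the one case past both thresholds. That call was lost in the test against 1.5-fold itself (adjusted p = 0.84, edgeR's glmTreat) and under limma on log2(FPKM + 1), where the log2 difference was 0.46. ZEB1 was 1.35-fold higher in clone 1 (log2 0.43, adjusted p = 4.6e-05) and 1.22-fold higher in HMC-1.1 (log2 0.29, adjusted p = 0.0022), under the 1.5-fold threshold. The clones differed by a log2 of -0.18 (adjusted p = 0.031), again under that threshold. Without clone 2 replicate 3 the log2 fold change of clone 2 against HMC-1.2 was 0.62. ZEB1-AS1, which overlaps ZEB1 on the opposite strand, had log2 fold changes of 0.56 in clone 1, 0.06 in clone 2, and 0.33 for HMC-1.1.

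ZEB2 (chromosome 2, 144364364 to 144521057) was the most abundant of the 5 transcription factors in all 4 groups, with 5603 to 8930 counts a library. Its mean was 47.1 ± 1.86 FPKM in HMC-1.2, 46.3 ± 4.14 in clone 1, 47.6 ± 1.60 in clone 2, and 52.4 ± 1.32 for HMC-1.1. It passed the 1.5-fold threshold in no comparison, with log2 fold changes against HMC-1.2 of 0.10 (SE 0.04, adjusted p = 0.055) in clone 1, 0.04 (SE 0.04, adjusted p = 0.46) in clone 2, and 0.26 (SE 0.04, adjusted p = 8.5e-05) for HMC-1.1. Without clone 2 replicate 3 the value for clone 2 was 0.02. The order of the groups below HMC-1.1 differed between CPM and FPKM, and in FPKM the sign of clone 1 against HMC-1.2 turned (log2 -0.02 on the log2(FPKM + 1) scale). In mean FPKM, ZEB2 was 12.3 to 18.6 times as abundant as ZEB1. VIM stood at 5.16 times the level of ZEB2 in HMC-1.2 and at 0.575 times its level in clone 1.

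CDH1 (chromosome 16, 68737292 to 68835537), the gene that the SNAI and ZEB factors are best known to repress, was at the floor throughout. It had 0 counts in 9 libraries and 2, 1 and 1 in HMC-1.1 replicate 1, HMC-1.2 replicate 3 and clone 1 replicate 2, with no value above 2. CDH2 (chromosome 18, 27932879 to 28177946) was at 0 in 9 libraries, had 1 count in each of 2 libraries of HMC-1.2, and had 11 in clone 2 replicate 3. Neither gene passed the filter on low counts, so neither was in the main test. With no filter, CDH1 passed in 0 of the 6 comparisons, and a difference in it was not detectable at this depth. CDH2 then passed as higher in clone 2 than in HMC-1.1 (adjusted p = 0.0497, edgeR) and than in clone 1 (adjusted p = 0.0394). Its 11 counts all lay in the library that also held KRT8, EGFR and SPARC, and without it CDH2 was at the floor in all 4 groups. The nearest tested neighbours of CDH2 on chromosome 18, KCTD1 and B4GALT6, were higher in clone 2 than in HMC-1.2 (log2 0.725 and 1.32). B4GALT6 was also higher in HMC-1.1 (log2 0.696), and neither passed the thresholds in clone 1. Whether genes along this chromosome differ in clone 2 was not tested here.

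FN1 (chromosome 2, 215360440 to 215436073), the gene of the matrix glycoprotein fibronectin, was expressed at a moderate level in all groups. It had 956, 710 and 858 counts in HMC-1.2, 693, 745 and 824 in clone 1, 530, 658 and 830 in clone 2 and 634, 636 and 732 in HMC-1.1, and the CPM of HMC-1.2 overlapped that of clone 1 alone. FN1 was 1.54-fold lower in clone 2 than in HMC-1.2 (log2 -0.62, SE 0.09, adjusted p = 3.2e-05). It was 1.49-fold lower in HMC-1.1 (log2 -0.58, adjusted p = 6.4e-05) and 1.28-fold lower in clone 1 (log2 -0.35, adjusted p = 0.0036), both short of 1.5-fold. Its values lay so close to the threshold that 1 library could move them across it. Without HMC-1.2 replicate 3 or clone 2 replicate 1 the call in clone 2 was lost (log2 -0.54 and -0.56), and without HMC-1.1 replicate 3 or HMC-1.2 replicate 2 HMC-1.1 passed as well (log2 -0.63 and -0.66). Without clone 2 replicate 3 the log2 fold change of clone 2 was -0.71.

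COL1A1 (chromosome 17, 50184101 to 50201632), the gene of the alpha-1 chain of type I collagen, was near the limit of detection. It had 22, 20 and 23 counts in HMC-1.2, 17, 5 and 15 in clone 1, 7, 15 and 15 in clone 2 and 12, 11 and 15 in HMC-1.1. Its log2 fold changes against HMC-1.2 were -1.0 in clone 1 (SE 0.39, adjusted p = 0.035), -1.11 in clone 2 (SE 0.39, adjusted p = 0.025) and -1.01 in HMC-1.1 (SE 0.39, adjusted p = 0.036). These calls were not stable. The call in clone 1 was lost without any 1 of the 3 HMC-1.2 libraries or without clone 1 replicate 2 (log2 -1.09 to -0.62), that in clone 2 without HMC-1.2 replicate 2 or 3 or clone 2 replicate 1 (log2 -1.14 to -0.90), and that in HMC-1.1 without any 1 of its 6 libraries (log2 -1.14 to -0.90). Without clone 2 replicate 3 the value for clone 2 was -1.19 (adjusted p = 0.048, edgeR). In FPKM the means were 0.183 ± 0.060 in HMC-1.2, 0.130 ± 0.105 in clone 1, 0.0767 ± 0.0569 in clone 2, and 0.213 ± 0.112 for HMC-1.1, which put HMC-1.1 and not HMC-1.2 highest. The FPKM reached per CPM differed by 5.3-fold among libraries for COL1A1 but by 1.03-fold for VIM. TMEM92, 70 kb from COL1A1, was lower in all 3 comparisons with HMC-1.2 (log2 -1.46, -3.31 and -2.82 in clone 1, clone 2 and HMC-1.1). PPP1R9B, the nearer neighbour at 33 kb on the other side, passed the thresholds in none of them (log2 -0.45, -0.23 and -0.32).

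Counted over the 8 members tested, 5 were lower and 0 higher in clone 1 than in HMC-1.2, where a change had to pass 0.05 on the adjusted p and exceed 1.5-fold. These were VIM, SNAI1, SNAI2, TWIST1 and COL1A1, beside 20.0% of all 15944 genes tested that changed in that comparison in either direction and 8.18% that were lower. In clone 2, 6 members were lower and 1, ZEB1, was higher, beside 16.5% of all genes in either direction, 8.51% lower and 7.98% higher. FN1 joined the 5 members that were lower in clone 1. In HMC-1.1, which carries V560G without D816V, 5 of the 8 were lower and 0 higher, beside 17.6% of all genes in either direction and 7.52% lower, and they were the same 5 genes as in clone 1. The median log2 fold change of the 8 members was -1.60 in clone 1, -1.19 in clone 2, and -1.38 for HMC-1.1, against 0.01, 0.00 and 0.01 over all genes. SNAI2 and TWIST1 could enter the test only by being high in HMC-1.2, and the same HMC-1.2 libraries entered all 3 comparisons, so their counts do not support each other. Genes that the study had drawn from these samples, VIM and SNAI2 among them, are counted here, and the counts are not independent evidence of direction.

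Fewer members changed among the other 3 groups than against HMC-1.2, and a smaller share of all genes did too. Between clone 1 and HMC-1.1, 0 of the 8 members changed, beside 1.01% of all genes, and 2 of them, VIM and ZEB2, passed on adjusted p alone, as did 18.7% of all genes. At an unadjusted p under 0.05 the number in edgeR was 4, a cutoff that at least the same 18.7% of all genes passed. DESeq2 and the other alternatives also gave 0 changed members in that comparison. Clone 2 was above HMC-1.1 in 2 members, VIM and SNAI2, beside 8.19% of all genes in either direction and 3.04% higher. Between clone 1 and clone 2, the same 2 members were lower in clone 1, beside 12.6% of all genes in either direction and 4.25% lower. The SNAI2 call rested on the fit of all 12 libraries. With the 2 compared groups alone SNAI2 failed the filter on low counts in both comparisons, and under limma on log2(FPKM + 1) its adjusted p was 0.11 for clone 2 against HMC-1.1 and 0.084 between the clones. Each pair of these 3 comparisons shares a group.

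**Figure D4:**
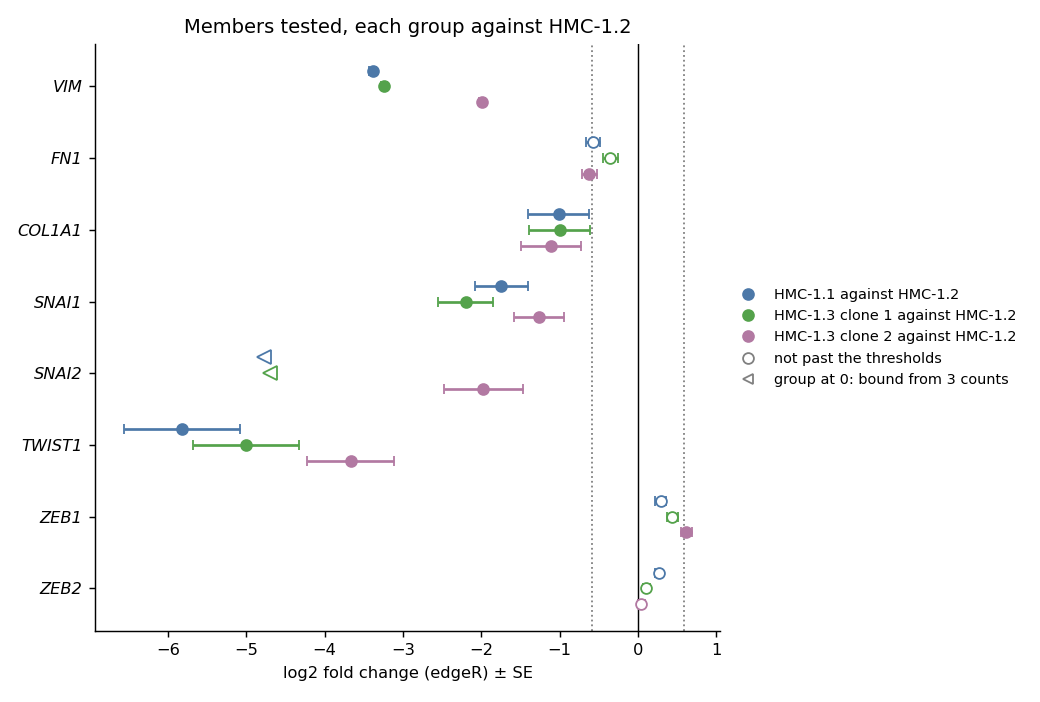
Log2 fold change (points) and standard error (bars) against HMC-1.2 of the 8 members tested, for HMC-1.1, HMC-1.3 clone 1 and HMC-1.3 clone 2, with dotted lines at 1.5-fold, open circles for values short of a threshold, and open triangles for SNAI2 at its bound where the group was at 0. VIM, COL1A1, SNAI1, SNAI2 and TWIST1 lie to the left of the dotted line in all 3 groups, ZEB2 lies between the lines, and VIM reaches -3.39 in HMC-1.1 and -1.99 in clone 2.

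Other genes of the transition programme moved in both directions. The counts of changed genes in the lists that follow stand beside 20.0%, 16.5% and 17.6% of all genes tested in clone 1, clone 2 and HMC-1.1, each against HMC-1.2. Of 8 other transcription factors of the transition, 4 were tested, and PRRX1 and GSC were at 0 in every library. KLF8, a Krüppel-like repressor, was higher than in HMC-1.2 in all 3 groups, with 2 to 5 counts a library in HMC-1.2 against 9 to 21 in the other 9 libraries (log2 2.03, 1.79 and 2.08 in clone 1, clone 2 and HMC-1.1). TWIST2, the paralog of TWIST1, had 96 to 307 counts in every library and was lower in clone 2 (log2 -0.83, SE 0.13) but not in clone 1 (log2 0.20, adjusted p = 0.17). TCF4, which encodes an E-protein partner of the TWIST factors, was higher in clone 2 alone (log2 0.67, SE 0.05).

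The 10 co-repressors that SNAI and ZEB factors recruit were all tested. Against HMC-1.2, 6 of them in clone 1 and 8 in HMC-1.1 passed on adjusted p alone, and 0 of the 10 also exceeded 1.5-fold. The shares of all genes given above, 20.0% and 17.6%, are for both thresholds together. The share on adjusted p alone is at least as high and is not given here, so these numbers and those of the next list have no matching background. In clone 2, 1 of the 10 was lower, RCOR1, a scaffold of the LSD1 complex, at 12.3 ± 0.179 FPKM against 26.0 ± 0.507 in HMC-1.2 (log2 -1.11, SE 0.04, adjusted p = 1.1e-13). Of the 9 genes tested among 10 ligands, receptors and SMADs of TGF-beta signalling, a known inducer of the transition, 0 exceeded the thresholds in clone 1 or HMC-1.1, where 5 and 6 passed on adjusted p alone, and 1 did in clone 2. This was SMAD4, the common mediator, at 30.4 ± 2.49 FPKM against 16.9 ± 1.65 (log2 0.87, SE 0.04, adjusted p = 1.7e-11). In clone 1 and in HMC-1.1 SMAD4 had a log2 fold change of 0.45 and 0.46, under the threshold.

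Mesenchymal matrix and contractile genes did not fall together with VIM. Of the 11 tested among 18 such genes, 3 were higher and 0 lower in clone 1, 1 higher and 2 lower in clone 2, and 3 higher and 1 lower in HMC-1.1. In either direction this was 3, 3 and 4 of the 11, beside the shares of all genes given above, and the median log2 fold change of the 11 was 0.03, -0.10 and 0.06. ACTA2, smooth muscle actin, was higher in all 3, at 14.8 ± 0.442 FPKM in clone 1, 12.5 ± 0.848 in clone 2, and 13.5 ± 0.146 for HMC-1.1 against 4.13 ± 0.488 in HMC-1.2. MMP2, the gelatinase A gene, rose to 8.58 ± 0.625 FPKM in clone 1 and 9.86 ± 0.634 in HMC-1.1 from 2.03 ± 0.350 in HMC-1.2, while clone 2 stood at 2.29 ± 0.200 (log2 0.35, under the threshold). The difference in MMP2 between the clones was a log2 of 2.03 (SE 0.07, adjusted p = 4.9e-13). COL5A1, a fibrillar collagen, was higher in clone 1 and HMC-1.1 (log2 0.59 and 0.72), and COL6A2, a chain of collagen VI, was lower in clone 2 and HMC-1.1 (log2 -1.53 and -0.89).

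Among the other intermediate filament and lamin genes, 1 of 8 tested changed in each comparison with HMC-1.2, and it was DES, the desmin gene. DES had 196 to 258 counts in HMC-1.2, 130 to 148 in clone 1, 125 to 166 in HMC-1.1 and 17 to 32 in clone 2. In contrast to VIM, it was lowest in clone 2 (log2 -3.61, SE 0.19, against -0.95 in clone 1 and -0.90 in HMC-1.1), and the clones differed by a log2 of 2.66 (SE 0.20, adjusted p = 7.2e-09). Of the other cadherins and catenins, CDH11, a mesenchymal cadherin, was lower in all 3 groups (log2 -2.21, -1.26 and -1.57 in clone 1, clone 2 and HMC-1.1) at no more than 25 counts a library. It had 17 to 25 counts in HMC-1.2 and 3 to 16 elsewhere, so its entry into the test leaned on HMC-1.2. CDH3, P-cadherin, which lies beside CDH1, was higher in clone 1 alone (log2 1.44, adjusted p = 0.0064). JUP, plakoglobin, was 92.4 ± 1.77 FPKM in clone 1 and 91.6 ± 2.03 for HMC-1.1 but 44.6 ± 1.55 for HMC-1.2 (log2 1.0 and 0.99), and 64.3 ± 3.10 in clone 2 (log2 0.50, under the threshold).

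The epithelial markers were mostly at or near the floor. Of 20 genes 7 were tested. Relative to HMC-1.2, 2 were higher and 3 lower in clone 1, with the same numbers in clone 2, while HMC-1.1 had 1 higher and 3 lower. CLDN3 and GRHL2 were at 0 in every library, and EPCAM had 0 to 5 counts. KRT19, a keratin, supplied most of the list's summed level and was itself highest in HMC-1.2, at 437 ± 6.09 FPKM against 172 ± 1.66 in clone 1, 216 ± 4.87 in clone 2, and 176 ± 4.20 for HMC-1.1 (log2 -1.40, -1.05 and -1.36). The summed level of the list was 436 to 448 FPKM in HMC-1.2 and 175 to 230 FPKM in the other libraries. OCLN, a tight junction protein, was also lower in the 3 groups (log2 -1.23, -1.06 and -1.13). TJP1, a scaffold of the tight junction, was higher in clone 1 and clone 2 (log2 0.85 and 1.53). KRT8 passed as higher in clone 2 (log2 3.72, adjusted p = 0.016), which rested on replicate 3, and without that library its log2 fold change was -1.71.

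**Figure D5:**
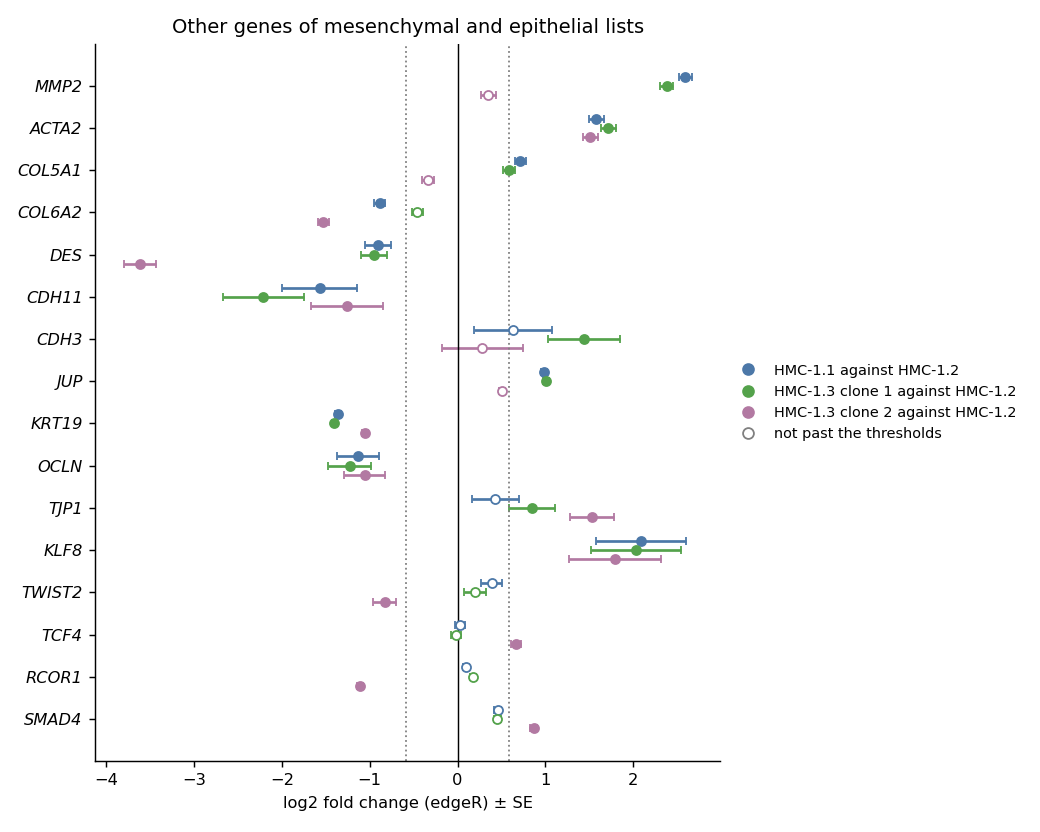
Log2 fold change (points) and standard error (bars) against HMC-1.2 of 16 genes of the other lists, for HMC-1.1, HMC-1.3 clone 1 and HMC-1.3 clone 2, with dotted lines at 1.5-fold and open circles for values short of a threshold. ACTA2 and KLF8 lie to the right and DES, CDH11, KRT19 and OCLN to the left in all 3 groups, and the points of HMC-1.1 and clone 1 lie closer to each other than to clone 2 in MMP2 and DES.

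Markers of the cell type itself moved beside the members. Of the 11 mast cell markers, 1 was higher and 6 were lower than in HMC-1.2 in each of clone 1, clone 2 and HMC-1.1, beside 8.18%, 8.51% and 7.52% of all genes that were lower. Their median log2 fold change was -0.97, -1.24 and -1.12. The ectonucleotidase gene ENPP3 had log2 fold changes of -4.55, -4.16 and -4.88 in these groups, and TPSAB1, which encodes a tryptase, of -3.83, -4.41 and -4.07. MS4A2, the beta chain of the IgE receptor, was lower in all 3 (log2 -1.68, -2.07 and -1.61), and FCER1A, its alpha chain, in clone 1 and HMC-1.1 (log2 -2.89 and -2.83) but not in clone 2 (log2 0.06, adjusted p = 0.87). MS4A2 had 18 to 23 counts a library in HMC-1.2 and 3 to 10 in the other groups. Like SNAI2, MS4A2 entered the test by being high in HMC-1.2, so its place among the 6 lower markers was partly built in. Of the fibroblast markers, 3 of 7 were tested, and LUM and PDGFRB changed, at a mean of no more than 0.703 FPKM in any group. LUM, a matrix proteoglycan, was higher in clone 1 and clone 2 (log2 0.96 and 1.29). PDGFRB, a receptor for platelet-derived growth factor, was higher in clone 1 and HMC-1.1 (log2 1.06 and 0.85) and lower in clone 2 (log2 -0.63, adjusted p = 0.021). The PDGFRB call in clone 2 was lost without replicate 3 (log2 -0.54), and its sign turned in FPKM. Of the endothelial markers, 2 of 6 were tested and neither changed, CLDN5 was at 0 and PECAM1 had at most 2 counts. EGFL7 was nonetheless expressed in all 4 groups, at a mean of 28.7 to 36.6 FPKM, and ESAM at 2.41 to 3.28 FPKM. The endothelial list summed to 28.9 to 41.8 FPKM over the libraries. The part of these shifts in the results of the members was not tested.

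The genes whose pattern over the 4 group means lay nearest to each member were sought among 13114 genes whose mean reached 1 CPM, by the root mean square distance of centred log2 CPM. For VIM they were DDC (0.052), CELSR1 (0.069) and AKAP12 (0.108). For SNAI2 they were LIFR (0.094), CELSR1 (0.095) and DDC (0.114). For SNAI1 they were TXK, RGS3 and SYNPO (0.060 to 0.091), and for TWIST1 EVI2B, NINJ2 and ATP7B (0.089 to 0.120). For ZEB1 they were RP11-77H9.2, TMEM91 and PAQR9 (0.024 to 0.026), for FN1 ERRFI1, BAIAP3 and RP1-265C24.9 (0.018 to 0.031), and for COL1A1 LYNX1, CLK4 and TBC1D9B (0.023 to 0.043). Each distance is over 4 points and describes likeness alone. The log2 CPM carried a prior count of 3. That count set the values of SNAI2 in the groups at 0 and weighed on those of TWIST1 at the floor. The neighbours of SNAI2 and TWIST1, with those that SNAI2 shared with VIM, therefore depend on that setting.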

How the data were processed

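Poly(A) RNA of 12 wells of HMC-1 cells, in 4 groups of 3, was sequenced as paired ends from a stranded library. Per the labels and the study's methods, the authors used cutadapt 2.10 for trimming, STAR 2.5.3 for alignment to hg38, and RSEM 1.3.0 with Gencode release 39 for quantification. The authors deposited RSEM expected counts and, in a second table, FPKM values. The strand setting of RSEM is not given in the sources used here. Groups came from the sample labels.

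Expected counts were rounded and tested with edgeR 4.0.16 (R 4.3.3): TMM normalization, filterByExpr, a quasi-likelihood fit of all 12 libraries and Benjamini-Hochberg adjustment over the 15944 genes kept. Calls required an adjusted p below 0.05 together with a difference of more than 1.5-fold. Libraries held 29225900 to 43181402 counts, and intervals and floors cover counting error only. The step was checked on simulated counts. Alternatives were DESeq2 1.42.0, no filter, the 2 groups alone, a replicate block, resent libraries (3 by the labels) as a covariate, a test against 1.5-fold, limma 3.58.1 on FPKM with a pseudocount of 1 or 0.1, and each library left out. Gene positions came from Gencode release 44 (GRCh38), in which 99% of identifiers matched, and promoter sequences from RefSeq (GRCh38.p14). The genes and lists were chosen with earlier results of these data known. All 10 members were described. Of each other list, up to 4 changed genes with the largest fold change against HMC-1.2, and markers at 0, were named, with the 3 genes of nearest pattern for each member that changed. Genes outside this rule were chosen after their values were seen. Some genes of these lists are not reported here.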

Additional observations from a re-analysis of the deposited data

Results flagged for a closer look

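VIM differed between the clones, with a log2 fold change of -1.25 in clone 1 against clone 2 (edgeR's quasi-likelihood test, adjusted p = 2.3e-13), and all 3 libraries of clone 1 lay below all 3 of clone 2. SNAI2 differed in the same direction, with 22 counts in clone 2 and 0 in clone 1 (edgeR's adjusted p = 0.0029, and 0.084 under limma on log2(FPKM + 1)). With the 22 counts taken as exact, it was at least 6.69-fold higher in clone 2. Of those counts, 13 were in replicate 3, the library that stood apart, and the bound rests on them. Without that library edgeR's adjusted p between the clones was 0.012. The 2 clones were made by the same editing step from the same line, and what sets them apart was not tested.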

How the results depend on the processing

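The log2 fold changes of VIM, SNAI1, SNAI2 and TWIST1 against HMC-1.2 kept their direction under every alternative. Their calls also held, except that limma on log2(FPKM + 1) lost SNAI2 and TWIST1 in all 3 comparisons and SNAI1 in clone 2 and HMC-1.1, and the test against 1.5-fold lost SNAI1 in clone 2. SNAI2 and TWIST1 entered the main test through HMC-1.2 alone and had few or no counts elsewhere. Their direction could hardly turn, so its holding adds no support. Between the groups other than HMC-1.2, limma on log2(FPKM + 1) lost both SNAI2 calls. The calls of ZEB1 and FN1 in clone 2 were lost under limma on log2(FPKM + 1) and in the test against 1.5-fold, as were those of COL1A1 in all 3 comparisons. A pseudocount of 1 exceeds the mean FPKM of SNAI1, SNAI2 and TWIST1 in every group. Limma on log2(FPKM + 1) called 2, 1 and 1 members changed against HMC-1.2 in clone 1, clone 2 and HMC-1.1, and 1 each in clone 2 against HMC-1.1 and clone 1 against clone 2. The test against 1.5-fold called 3 in clone 2 against HMC-1.2. Without the filter on low counts 3 members changed in clone 2 against HMC-1.1 and 3 between the clones, the added gene being CDH2, while HMC-1.1 relative to HMC-1.2 had 4, without COL1A1. Fitting the 2 groups alone left 1 in clone 2 against HMC-1.1 and 1 in clone 1 against clone 2, since SNAI2 then failed the filter. With each library left out in turn, the number changed was 4 to 5 in clone 1, 5 to 7 in clone 2 and 4 to 5 in HMC-1.1, each with HMC-1.2, 0 in clone 1 against HMC-1.1, 2 in clone 2 against HMC-1.1 and 2 to 3 between the clones, and COL1A1, FN1 and SNAI1 were the members that moved.

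Same-numbered libraries deviated together weakly at most (median r 0.03 over 18 pairs, -0.04 to 0.10). The median was -0.01 over 36 pairs of different number (-0.11 to 0.08). Still, 8 of 12 libraries correlated best with their own number. With a replicate block 5, 7 and 5 members changed against HMC-1.2 in clone 1, clone 2 and HMC-1.1, 0 in clone 1 against HMC-1.1, 2 in clone 2 against HMC-1.1 and 2 between the clones, as without it.

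Over all genes, the test against 1.5-fold called 1932, 1612 and 1618 genes in clone 1, clone 2 and HMC-1.1 relative to HMC-1.2 where the main test called 3193, 2630 and 2803, and limma on log2(FPKM + 1) called 1902, 1453 and 1513. In clone 1 against HMC-1.1, 161 genes fell to 106 with DESeq2, 9 against 1.5-fold, 61 with limma and 107 without clone 1 replicate 2. In clone 2 against HMC-1.1, 1306 fell to 552 and 566 under the last 2 tools, and between the clones 2013 fell to 837 and 969.

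Signs that turned belonged to values near 0, with KRT8, PDGFRB, COL1A1 and TWIST1 as exceptions, and the cause was not tested. Under limma with pseudocounts of 1 and 0.1 these were ZEB2 in clone 1 against HMC-1.2 (-0.025 and -0.025) and against clone 2 (-0.042 and -0.043), COL1A1 in HMC-1.1 as compared with HMC-1.2 (0.033 and 0.10) and in clone 1 against HMC-1.1 (-0.10 and -0.48), TCF4 in HMC-1.1 (-0.025 and -0.028), PDGFRB in clone 2 (0.15 and 0.41) and, with 0.1, KRT8 in clone 2 (-0.042). With a library left out, the range was -1.83 to 2.65 for TWIST1 and -0.29 to 0.40 for COL1A1 in clone 1 against HMC-1.1, -0.14 to 0.019 for FN1 and -0.26 to 0.11 for COL1A1 in clone 2 against HMC-1.1, and -0.20 to 0.49 for COL1A1 between the clones. Against HMC-1.2 it was -0.060 to 0.034 for TCF4 in clone 1, and -0.014 to 0.065 for TCF4 in HMC-1.1, and in clone 2 it was -0.043 to 0.96 for CDH3, -0.12 to 0.22 for FCER1A and -1.71 to 4.30 for KRT8. Depth limits CDH1 and CDH2, which were at the floor, and COL1A1, SNAI2 and TWIST1, which had no more than 30 counts a library.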
